A study of Mus musculus with 10 samples.

Results

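Homeobox and lineage transcription factors were examined in mouse livers that had lost the histone variant H3.3 from hepatocytes. Genes of the Hox a to d, Pax, Lhx, Nkx, sine oculis (such as Six4 and Six5), Gata, Dlx, Msx, Irx and Pitx families were taken by their symbols. Of 55421 genes in the count table, 100 carried such a name. Among these, 19 had 0 counts, 45 had 1 to 9 counts over the 10 livers, and 36 had 10 or more and were described as the set, out of 22449 genes that passed the same floor. The question was whether genes that are mostly silent in adult hepatocytes lost their silencing without H3.3.

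All livers came from male C57BL/6 mice injected with AAV8, an adeno-associated virus, at 6 months of age and were taken 3 weeks later. The H3.3 KO group held 4 H3f3a fl/fl H3f3b fl/fl mice given Tbg-Cre, in which Cre recombinase removes both genes that encode H3.3. The WT Cre controls were 3 wild-type mice given the same Tbg-Cre virus. The MCS controls were 3 H3f3a fl/fl H3f3b fl/fl mice given Tbg-MCS, a vector without Cre. Tbg is a hepatocyte promoter, so the other cells of the liver keep H3.3, and whole-liver RNA holds them all. The genotype field names HIRA for the floxed mice, and the groups follow the titles. Columns named only as controls were assigned to WT Cre or MCS by library number, and all values for one kind of control rest on that match.

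These families are the classic patterning and lineage regulators of the animal embryo. HOX proteins give cells their position along the body axis, PAX, LHX, sine oculis, DLX, MSX, IRX and PITX proteins build eyes, limbs, brain, teeth and sense organs, and GATA proteins direct blood, heart and gut lineages. In most adult cells their genes, which often have CG-rich promoters, lie under Polycomb repression, in which the PRC2 complex marks histone H3 and PRC1 compacts the chromatin. GATA4 and GATA6 are exceptions in liver, where they act in hepatocytes and in the non-parenchymal cells.

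Total counts ran from 20862860 to 26096141 in 9 livers, whereas KO 1 had 14998426. H3f3a averaged 62.1 CPM (SD 1.58) over the 6 controls and 17.4 CPM (SD 1.66) over the 4 KO livers, and H3f3b averaged 160 CPM (SD 24.05) and 50.5 CPM (SD 7.40), with every KO liver below every control for both. CPM are normalized counts, with every library scaled to a common size. Hepatocyte markers were detected in all livers, and 8 of 10 were lower in KO at an adjusted p under 0.05 (median log2 fold change -0.85). Markers of other cells varied by type. At an adjusted p under 0.05, 10 of 10 T cell, 10 of 10 Kupffer cell, 8 of 10 hepatic stellate cell and 9 of 10 fibroblast genes were higher in KO, against 2 of 10 sinusoidal endothelial, 3 of 10 vascular endothelial, 2 of 9 cholangiocyte and 1 of 8 platelet genes. Of 9 erythroid genes 0 were higher and 1 was lower in edgeR. In bulk tissue, more cells of a type and more RNA per cell cannot be told apart. Summed T cell markers were 3.75 to 5.94 CPM in the controls and 7.04, 30.1, 17.95 and 27.8 CPM in KO 1 to 4. Summed stellate markers were 223 to 284 CPM in the controls and 315 to 396 CPM in KO, and summed fibroblast markers were 50.6 to 69.0 and 234 to 438 CPM.

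Promoters of these families are rich in CG dinucleotides, the letters that can carry DNA methylation. RefSeq promoter windows on GRCm38.p6, from 250 bases before to just after a gene's start, were found for 65 of the 100 genes and 22 of the 36 in the set. At least 15 CG were counted in 37.1% of all 27025 genes with a window, in 59.1% of the 22 of the set and in 74.4% of the 43 matched genes with fewer than 10 counts. CG reads the same on both strands, and a gene with more than 1 window was counted by its richest. The 250 bases upstream of the start are shown for Gata3 and Hoxa2, which rose, and for Pitx3, which fell, with each CG in capitals.
Gata3 (chr2:9878601-9878850, minus strand): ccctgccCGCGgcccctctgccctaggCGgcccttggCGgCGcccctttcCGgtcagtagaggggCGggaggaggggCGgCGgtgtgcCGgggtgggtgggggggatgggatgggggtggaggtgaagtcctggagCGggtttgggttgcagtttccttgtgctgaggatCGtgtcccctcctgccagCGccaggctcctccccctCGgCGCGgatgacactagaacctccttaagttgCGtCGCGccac
Hoxa2 (chr6:52164832-52165081, minus strand): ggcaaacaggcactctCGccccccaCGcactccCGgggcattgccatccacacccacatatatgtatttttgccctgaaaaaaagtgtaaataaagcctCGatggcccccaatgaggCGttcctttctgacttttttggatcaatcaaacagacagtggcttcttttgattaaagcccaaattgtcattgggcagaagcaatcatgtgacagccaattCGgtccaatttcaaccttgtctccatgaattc
Pitx3 (chr19:46148326-46148575, minus strand): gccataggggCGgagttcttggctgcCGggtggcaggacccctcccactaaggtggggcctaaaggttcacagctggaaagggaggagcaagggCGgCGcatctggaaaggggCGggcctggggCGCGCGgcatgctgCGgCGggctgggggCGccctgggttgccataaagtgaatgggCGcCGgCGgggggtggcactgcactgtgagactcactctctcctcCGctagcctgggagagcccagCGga
The upstream bases of Gata3 and Pitx3 held 19 and 16 CG, and those of Hoxa2 held 6. Genes called in the same direction therefore differed in CG density, and a CG count was a description of the window only. In GENCODE M21 the Gata3 window lies inside the longest annotated span of the gene. Exons of Gata3 share 155 bases with those of Gm13256 on the opposite strand, which had 1 count in the controls and 0 in KO.

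Few genes of the set changed beyond the spread between livers. Against all 6 controls, 5 of 36 (13.9%) were called higher in KO, namely Gata3, Msx1, Hoxa2, Irx1 and Irx3, and 2 of 36 (5.56%), Pitx3 and Pax9, were called lower. A call needed an adjusted p under 0.05 over all genes tested by edgeR and an absolute log2 fold change over 1. Of all 22449 genes, 12.9% were called higher and 5.79% lower by the same rule. Without KO 4, 0 members were called higher in edgeR and the same 2 lower. The set was called at about the rate of the whole transcriptome in both directions. At an adjusted p under 0.05 alone, 7 of its 36 genes passed, a lower share than the 8155 of all 22449 genes (36.3%). This share was not compared at equal depth. The median log2 fold change of the set was 0.26 against -0.0030 for all genes, and 26 of 36 values (72.2%) were positive against 49.8% of all genes. At 10 to 99 counts in all, the median was 0.54 for 21 members, with 3 called higher and 1 lower, and 0.13 for all 7237 genes of that depth, of which 12.7% were called higher. From 100 counts up, in the next range of depth, the median was 0.24 for 12 members, with 2 called higher and 1 lower. It was 0.12 for all 5176 genes there, of which 23.5% were called higher. Among the 10036 deepest genes it was 0.17 for 3 members and -0.07 for all. The difference in medians was not tested.

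**Figure D1:**
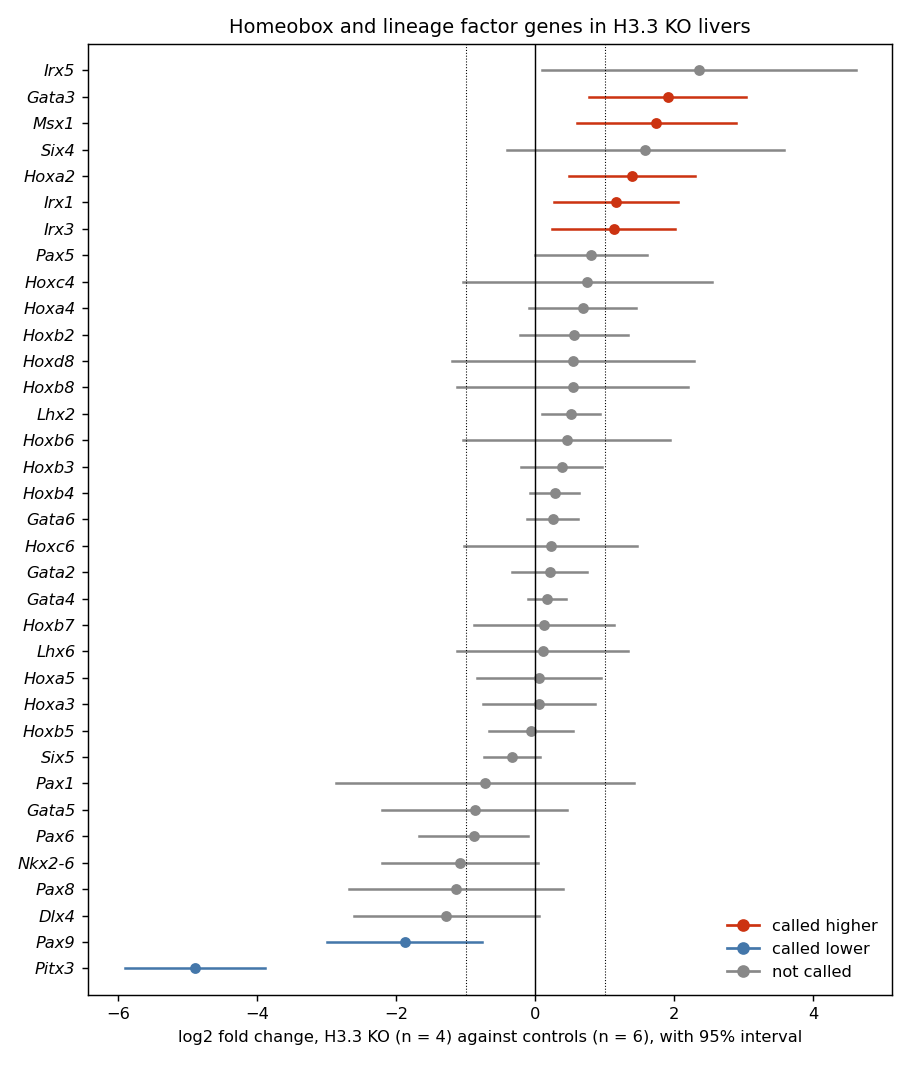
Log2 fold change of the genes described here in H3.3 KO (n = 4) against the controls (n = 6), from edgeR, with its 95% interval; red and blue mark genes called higher and lower, grey the rest, and dotted lines mark a change of 1. Most intervals cross 0, and Pitx3 at -4.90 stands far from the others.

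Few genes of the set separated the livers completely. All KO values lay above all controls in 1 of 36 genes (2.78%), Hoxb4, against 12.5% of all genes. All KO values lay below all controls in 2 of 36 (5.56%), Pitx3 and Pax9, against 12% of all genes. Each of the 5 genes called higher therefore overlapped the controls in at least 1 KO liver. The shares of complete separation were not compared at equal depth. Of the 36 genes, 21 had 10 to 99 counts, against 7237 of all 22449 genes. Of the 29 genes not called, 15 had an upper bound of the 95% interval under 1 on the log2 scale, and 10 had an interval wholly within 1 of 0. For the other 19 genes not called, the interval reached past a doubling or a halving.

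Gata3, which directs T cells and innate lymphoid cells and is also used in other epithelia, showed the largest rise among the genes called. It lies at chr2:9857078-9890034 (mm10, minus strand). Gata3 had 4, 2 and 3 counts in WT Cre, 3, 1 and 2 counts in MCS, and 2, 13, 4 and 21 counts in KO. KO 2 and KO 4 stood well above all controls, KO 3 lay barely above the highest of them once scaled (0.169 against 0.167 CPM), and KO 1 lay within them. It averaged 0.109 CPM (SD 0.041) over the 6 controls and 0.404 CPM (SD 0.317) over the 4 KO livers, a log2 fold change of 1.90 with a standard error of 0.522 (edgeR adjusted p = 0.0122). Without KO 4 the log2 fold change was 1.34 and the gene was not called (edgeR adjusted p = 0.0746). Summed T cell markers were 7.04, 30.1, 17.95 and 27.8 CPM in KO 1 to 4, all above the 3.75 to 5.94 CPM of the controls. The part of these cells in the Gata3 value was not tested.

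No other GATA gene was called. Gata4 had the highest level of the set per length, 5.11 CPM per kb of exon in the controls and 5.74 in KO. Its log2 fold change was 0.17 (95% interval -0.10 to 0.44), with 14.8 to 23.2 CPM in the controls and 20.99 to 24.2 CPM in KO. The MCS livers, at 17.1, 20.1 and 14.8 CPM, lay below the WT Cre livers at 22.1, 23.2 and 22.4 CPM, and this difference did not pass (log2 fold change 0.38, edgeR adjusted p = 0.240). Gata6 averaged 8.38 CPM (SD 2.27) over the 6 controls and 9.92 CPM (SD 0.708) over the 4 KO livers, a log2 fold change of 0.25 (95% interval -0.12 to 0.62). Both intervals stayed below a doubling. Gata2, a regulator of blood progenitors and endothelium, had a log2 fold change of 0.21 (95% interval -0.34 to 0.75), and Gata5, with at most 6 counts in a liver, had a log2 fold change of -0.87 with a wide interval (-2.20 to 0.46).

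**Figure D2:**
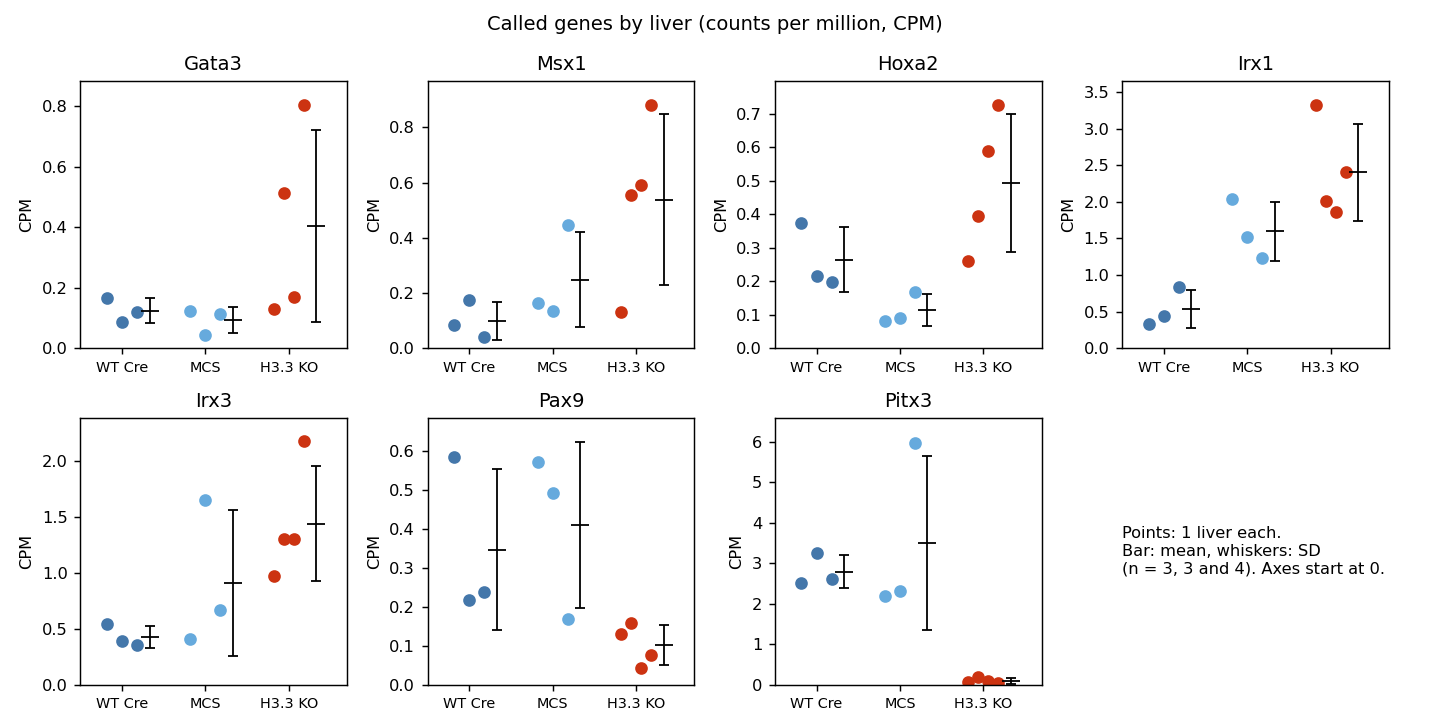
CPM of the 7 called genes in each liver, with the group mean and SD beside the points (WT Cre n = 3, MCS n = 3, H3.3 KO n = 4; each axis starts at 0). KO livers overlap controls for the 5 genes that rose, and lie wholly below them for Pax9 and Pitx3.

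Hox genes were low in all livers, and 1 of the 15 in the set was called. All 39 Hox genes of the table summed to 4.73 to 6.75 CPM in the controls and to 5.93, 6.80, 7.96 and 8.30 CPM in KO 1 to 4, so KO 1 lay within the control range. Per length, Hoxb4 was the highest Hox gene, at 0.792 CPM per kb in the controls. Hoxb4 had 53, 51 and 48 counts in WT Cre, 52, 49 and 28 in MCS, and 37, 71, 53 and 63 in KO. After scaling to library size, all KO livers lay just above all controls (2.23 to 2.81 against 1.57 to 2.21 CPM), and the log2 fold change of 0.28 did not pass (95% interval -0.08 to 0.63, edgeR adjusted p = 0.219). The members of the Hoxb cluster ranged from -0.06 for Hoxb5 to 0.56 for Hoxb2 in log2 fold change, and none was called.

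In the Hoxa cluster, Hoxa2 was the gene called. Hoxa2, which patterns the hindbrain and second pharyngeal arch, lies at chr6:52162417-52164831 (mm10, minus strand). It had 9, 5 and 5 counts in WT Cre, 2, 2 and 3 in MCS, and 4, 10, 14 and 19 in KO. The WT Cre livers stood above the MCS livers, and KO 1 lay within the controls. It averaged 0.188 CPM (SD 0.107) over the 6 controls and 0.493 CPM (SD 0.206) over the 4 KO livers, a log2 fold change of 1.39 with a standard error of 0.422 (edgeR adjusted p = 0.0202). Against WT Cre alone the log2 fold change was 0.93 (edgeR adjusted p = 0.126), and against MCS alone it was 2.16 (edgeR adjusted p = 0.00698). Hoxa2 was not called without KO 3 (log2 fold change 1.32, edgeR adjusted p = 0.0569) or without KO 4 (1.14, edgeR adjusted p = 0.0791). Hoxa3, Hoxa4 and Hoxa5 had log2 fold changes of 0.05, 0.68 and 0.06. The Hoxc and Hoxd members, Hoxc4, Hoxc6 and Hoxd8, had at most 7 counts in a liver. Of 5 non-coding genes of the Hox clusters that were tested, 0 passed in edgeR at an adjusted p under 0.05.

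Irx1 and Irx3, Iroquois factors that pattern neural, heart and limb tissue, were called higher, and their controls disagreed. Irx1 (chr13:71957921-71963723, mm10, minus strand) had 8, 10 and 21 counts in WT Cre, 50, 34 and 22 in MCS, and 51, 51, 44 and 63 in KO. The MCS livers lay above the WT Cre livers and overlapped KO once scaled to library size. The log2 fold change was 1.16 with a standard error of 0.411 (edgeR adjusted p = 0.0427) against all controls, 2.14 (edgeR adjusted p = 0.00100) against WT Cre and 0.57 (edgeR adjusted p = 0.191) against MCS. WT Cre was lower than MCS by a log2 fold change of -1.57, which did not pass in edgeR (adjusted p = 0.0816) but was called by DESeq2. Irx3 (chr8:91798525-91802067, mm10, minus strand) had 13, 9 and 9 counts in WT Cre, 10, 37 and 12 in MCS, and 15, 33, 31 and 57 in KO. MCS 2, at 1.65 CPM, was above 3 of the 4 KO livers, and the log2 fold change was 1.13 with a standard error of 0.409 (edgeR adjusted p = 0.0456). Irx5 had 1, 1 and 0 counts in WT Cre, 0 in each MCS liver, and 0, 5, 0 and 4 in KO, too few for a fold. The call of Irx1 ended without any 1 KO or WT Cre liver or without MCS 3 (log2 fold changes 0.97 to 1.28, edgeR adjusted p = 0.0558 to 0.103). That of Irx3 ended without any WT Cre liver, MCS 1, MCS 3, KO 2, KO 3 or KO 4 (0.86 to 1.19, edgeR adjusted p = 0.0675 to 0.153).

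Msx1, a repressor that keeps limb, tooth and craniofacial progenitors undifferentiated, rose from a very low level. It lies at chr5:37820485-37824583 (mm10, minus strand). Msx1 had 2, 4 and 1 counts in WT Cre, 4, 3 and 8 in MCS, and 2, 14, 14 and 23 in KO, so KO 1 was within the controls and the other KO livers were above them. It averaged 0.173 CPM (SD 0.143) over the 6 controls and 0.538 CPM (SD 0.309) over the 4 KO livers, a log2 fold change of 1.74 with a standard error of 0.531 (edgeR adjusted p = 0.0210). Without KO 4 it was 1.41 and the gene was not called (edgeR adjusted p = 0.0789). KO 1 had the lowest T cell, stellate and fibroblast sums among the KO livers, KO 4 had the highest stellate and fibroblast sums, and their part in the Msx1 value was not tested.

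Pitx3, a factor of the lens and of midbrain dopamine neurons, fell most. It lies at chr19:46135685-46148326 (mm10, minus strand). Pitx3 had 60, 75 and 66 counts in WT Cre, 54, 52 and 107 in MCS, and 1, 5, 2 and 1 in KO. No KO liver came near a control. The log2 fold change was -4.90 with a standard error of 0.468 (edgeR adjusted p = 1.01e-05). The last 10 exon bases of Elovl3, a fatty acid elongase that hepatocytes express strongly, overlap Pitx3 on the opposite strand. Elovl3 had 7265 to 11861 counts in the controls and 503 to 900 in KO, a log2 fold change of -3.75 with a standard error of 0.299 (edgeR adjusted p = 6.54e-06). Pitx3 counts amounted to 0.546% to 0.904% of Elovl3 counts in the controls and to 0.161% to 0.556% in KO. The kit marks strand, but the strand setting of the counting was not stated, so reads over the 10 shared bases cannot be told apart. Gene counts do not show where in Pitx3 its reads lay, and the part of Elovl3 reads in them was not tested.

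**Figure D3:**
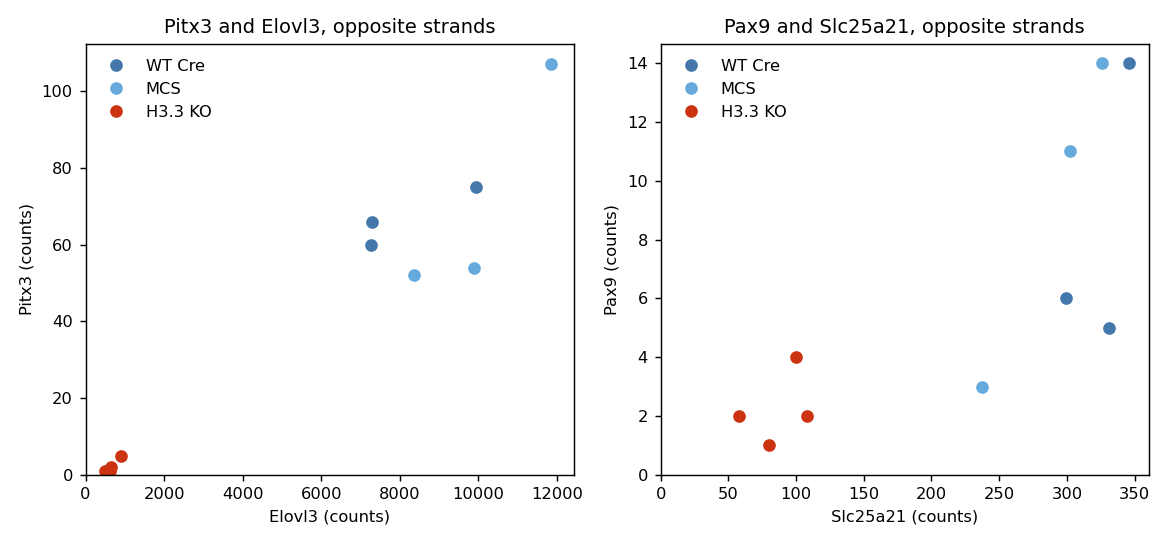
Counts of Pitx3 against Elovl3 and of Pax9 against Slc25a21, which overlap on opposite strands, with 1 point per liver (axes start at 0). In both panels the KO livers sit at the low end of both axes, with Pitx3 at 1 to 5 counts and Pax9 at 1 to 4 counts.

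Pax9, a regulator of teeth, skeleton and pharyngeal pouches, was the other gene called lower. It lies at chr12:56691767-56712822 (mm10, plus strand). Pax9 had 14, 5 and 6 counts in WT Cre, 14, 11 and 3 in MCS, and 2, 4, 1 and 2 in KO. After scaling, all KO livers lay below all controls, by a narrow margin between MCS 3 at 0.168 CPM and KO 2 at 0.158 CPM. The log2 fold change was -1.88 with a standard error of 0.519 (edgeR adjusted p = 0.0125). Pax9 shares 189 exon bases with Slc25a21, a mitochondrial carrier gene on the other strand, whose log2 fold change of -1.72 passed (edgeR adjusted p = 0.000193). Slc25a21 had 237 to 346 counts in the controls and 58 to 108 in KO, and Pax9 amounted to 1.27% to 4.29% and 1.25% to 4.00% of it. The ranges of this share overlapped, and here too reads over the shared bases cannot be told apart. Nkx2-6 overlaps 1700092C10Rik on the opposite strand, which fell (log2 fold change -1.99, edgeR adjusted p = 0.0187), and Nkx2-6 itself was at -1.08 (edgeR adjusted p = 0.122). Gata6 was not called although its antisense neighbour 1010001N08Rik fell (log2 fold change -1.35, edgeR adjusted p = 0.00108).

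The remaining Pax genes did not pass. Pax5, the B cell lineage regulator, had 13, 18 and 7 counts in WT Cre, 10, 15 and 4 in MCS and 6, 24, 17 and 33 in KO, with a log2 fold change of 0.80 (95% interval -0.01 to 1.61, edgeR adjusted p = 0.115). Summed B cell markers were 1.56 to 10.7 CPM in the controls and 9.64 to 18.8 CPM in KO, and their part in Pax5 was not tested. Pax6, which builds the eye, had a log2 fold change of -0.89 (edgeR adjusted p = 0.0728) against all controls and was called lower only against MCS, at -1.13 (edgeR adjusted p = 0.0463). WT Cre and MCS themselves differed by a log2 fold change of -0.52 in Pax6, which did not pass (edgeR adjusted p = 0.730). Pax8 had at most 7 counts and Pax1 at most 4 counts in a liver.

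Lhx6 and Lhx2 were the Lhx genes above the floor. Lhx6, known from interneurons and teeth, was the second highest of the set per length, at 2.57 CPM per kb in the controls. It had 407, 309 and 534 counts in WT Cre, 189, 135 and 157 in MCS, and 444, 262, 255 and 97 in KO. The WT Cre livers lay wholly above the MCS livers, and the KO livers spanned the whole range of both. The log2 fold change of KO was 0.10 (95% interval -1.13 to 1.34, edgeR adjusted p = 0.905), and that of WT Cre against MCS was 1.20 (edgeR adjusted p = 0.548). Its sign turned when KO 1 was left out (-0.58). Lhx2, which in liver keeps hepatic stellate cells quiescent, was 3.06 ± 0.596 CPM (SD, n = 6) in the controls and 3.00, 5.34, 4.85 and 4.21 CPM in KO 1 to 4, with a log2 fold change of 0.51 (95% interval 0.09 to 0.93, edgeR adjusted p = 0.0565). KO 1 lay within the controls and the other KO livers above them, beside a rise of the summed stellate markers in all KO livers whose part was not tested.

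Six5, a partner of EYA proteins in eye and muscle, averaged 4.02 CPM (SD 0.675) over the 6 controls and 3.19 CPM (SD 0.629) over the 4 KO livers, with a log2 fold change of -0.34 (95% interval -0.74 to 0.06). Dlx4 had 0, 3, 3 and 3 counts in KO and 2 to 10 in the controls, and its log2 fold change of -1.28 did not pass (edgeR adjusted p = 0.125). Just above the floor lay Six4 with 10 counts and Irx5 and Pax1 with 11 each, and just below it Irx2, Nkx6-1 and Hoxc8 with 7 each.

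**Figure D4:**
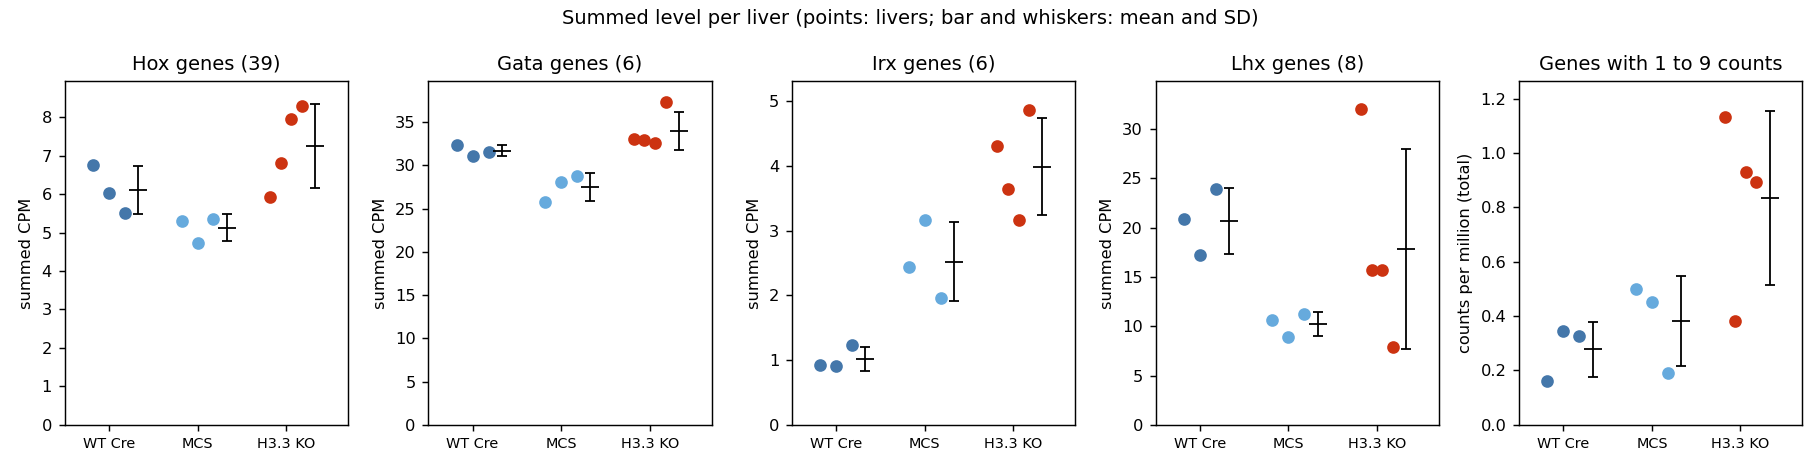
Summed CPM per liver of all Hox, Gata, Irx and Lhx genes in the table, and CPM of the unadjusted library totals for the 45 genes with 1 to 9 counts, with group means and SD (WT Cre n = 3, MCS n = 3, H3.3 KO n = 4; axes start at 0). Gata sums of 32.6 to 37.3 CPM in KO lie just above 25.7 to 32.4 CPM in the controls, whereas Hox, Irx and Lhx sums overlap.

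Whether silent genes of these families gained reads was read in part from the 45 genes below the floor. The floor counted reads of all livers, KO included, so these genes cannot show a gain that lifts a gene past it. Irx5, with 2 counts in the controls and 9 in KO, and Six4, with 3 and 7, lay above it. Of the 36 genes in the set, 6 would have missed the floor on the controls alone and 11 on the KO livers alone. Together the 45 genes had 4, 8 and 8 counts in WT Cre, 13, 11 and 4 in MCS, and 17, 9, 20 and 21 in KO. KO 2 lay within the controls, and the other KO livers lay above them. Over the pooled libraries this was 0.801 CPM of the unadjusted totals in KO and 0.334 CPM in the controls, a ratio of 2.40. The 11475 genes of the whole table with 1 to 9 counts gave 202 and 128 CPM, a ratio of 1.57, and there every KO liver lay above every control. At an equal depth of 14998426 counts, 31 to 40 of the 100 genes had a count in the controls, and 45, 35, 46 and 43 in KO. KO 2 again lay within the controls. With at least 3 counts the numbers overlapped, at 20 to 27 in the controls and 20, 24, 28 and 24 in KO. No gene below the floor was tested by itself.

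The kinds of control gave different members. Against WT Cre, 3 of 36 were called higher, Msx1, Irx1 and Irx3, where 10.6% of all genes were called, and 2 lower, Pitx3 and Pax9, where 5.33% were. Against MCS, 3 were called higher, Gata3 and Hoxa2 among them, where 11.9% of all genes were called, and 3 lower, Pax6, Pax9 and Pitx3, where 5.54% were. Both comparisons share the KO livers. Between the kinds of control, 0 of 36 genes were called by edgeR, where 0.298% of all genes were higher and 0.343% lower in WT Cre. At an unadjusted p under 0.05 in edgeR, 2 of 36 members passed (Irx1 and Gata4), a lower share than the 2397 of all 22449 genes. DESeq2 called Irx1.

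Genes of the machinery around these factors passed at shares near or above that of all genes. Of 33 Polycomb genes, 10 were higher and 6 lower in KO at an adjusted p under 0.05 (median log2 fold change 0.04), or 48.5%. In either direction, 8155 of all 22449 genes (36.3%) passed. The PRC2 core genes Ezh2, Eed and Suz12 did not pass, at log2 fold changes of -0.04, -0.22 and -0.08. Among the TALE proteins, which bind DNA together with HOX proteins, 3 of 11 were higher and 1 lower (36.4%), with Meis3 at 1.00 (edgeR adjusted p = 0.00781). Partners of GATA, LIM and sine oculis proteins were higher in 7 of 12 genes and lower in 0 (median 0.64), or 58.3%. Among these partners were Ldb1, the bridge between LIM proteins, at 0.55 (edgeR adjusted p = 0.00296), and Lmo2 at 0.80 (edgeR adjusted p = 0.00102). Trithorax and H3K27 demethylase genes were higher in 3 and lower in 2 of 14 (35.7%). The TALE and trithorax shares lie near the 36.3% of all genes.

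Homeobox genes outside the named families gave 9 higher and 4 lower of 34 tested (median log2 fold change 0.28), or 38.2% in either direction. Cux2, a factor known for female-biased expression in liver, rose from 0.524 to 22.8 CPM (log2 fold change 5.40 with a standard error of 0.335, edgeR adjusted p = 1.12e-06), and Hhex, a hepatocyte and endothelial factor, fell from 96.5 to 53.9 CPM (log2 fold change -0.84, edgeR adjusted p = 0.0130). Other lineage factors gave 7 higher and 0 lower of 18 tested (median 0.58), or 38.9%. Both shares lie near the 36.3% of all genes. They included Sox9, a cholangiocyte and progenitor factor, at 1.32 (edgeR adjusted p = 0.000645), Tbx21 of T and natural killer cells at 1.38 (edgeR adjusted p = 0.0362), and Wt1 of mesothelial and stellate cells at 1.45 (edgeR adjusted p = 0.00234). Of the cholangiocyte and the mesothelial markers, 2 of 9 each were higher at an adjusted p under 0.05, and their sums overlapped between the groups (43.1 to 65.0 CPM in the controls and 57.2 to 78.0 CPM in KO for cholangiocytes, 2.32 to 4.72 and 4.67 to 7.00 CPM for mesothelium). Sox9 is itself among these cholangiocyte markers and Wt1 among the mesothelial markers, so both entered these counts and sums. The part of any cell type in these values was not tested.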

How the data were processed

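Livers of 10 mice were measured by poly(A) RNA-seq with a strand-marking kit. After trimming, the authors used STAR for alignment to mm10 and HOMER for gene counting. Per the labels, the submitters' processing notes also name HTSeq and Cufflinks. The deposited counts are raw whole numbers, and the deposited FPKM values were used only in alternatives. Strand setting and multiple matches were not stated.

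Genes with at least 10 counts over 10 samples were tested by the quasi-likelihood test of edgeR 4.0.16 (R 4.3.3, TMM, robust, two-sided), with Benjamini-Hochberg adjustment over all 22449 genes. KO was compared with 6 pooled controls, and a fit of 3 groups gave the other contrasts. Alternatives were DESeq2 1.42.0, limma 3.58.1 (voom, and log2(FPKM + 1) or log2(FPKM + 0.1)), other scalings and filters, a replicate block, and each sample left out. The fits were tested on simulated data. Coordinates came from GENCODE M21, which held 54587 of 55421 identifiers, and 19 of the 36 genes overlapped an exon of another gene. The genes named in the text were those called against all controls, the 6 with the highest mean CPM, any called between the controls and those next to the floor of 10 counts. Others in the families, and the examples from other lists, were named after their values were seen. The set and all lists were chosen with earlier results of these data known. Replicates differed by a chi-square of 10.3 to 96.7 per degree of freedom, so none was a repeated library. The labels do not say more of the mice, so p-values measure the spread between these samples. No column was left unassigned. Some genes of these lists are not reported here.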

Additional observations from a re-analysis of the deposited data

Results flagged for a closer look

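Among the 13 genes named by the rule, 26 groups of control or KO livers were searched for a liver far from the rest by Dixon's test, and chance gives about 1 in 20 such groups. The MCS 2 liver stood apart in Irx3 at 1.65 CPM, with the nearest control at 0.671 CPM. The MCS 3 liver stood apart in Msx1 at 0.447 CPM (nearest 0.174), in Pitx3 at 5.98 CPM (nearest 3.25) and in Gata6 at 12.7 CPM (nearest 8.63).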

How the results depend on the processing

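Of the genes called against all controls, Pitx3 was called in all 19 alternatives and Pax9 in each of the 18 that tested it except both FPKM fits. DESeq2, library size alone and DESeq2 size factors gave the same 7 genes. The count was 3 with filterByExpr (which tested 16 of the genes), 1 on log2(FPKM + 1) and 2 on log2(FPKM + 0.1). Leaving out 1 liver gave 2 to 8, with 2 without KO 4, when 0 genes were called higher. Without the shallow KO 1 it was 8, with Nkx2-6 among those added and Irx1 lost. Against WT Cre the 5 calls became 1 and 3 in the FPKM fits and 2 to 7 with 1 liver left out. Against MCS the 6 calls became 2 with filterByExpr, 1 and 2 in the FPKM fits and 2 to 8 with 1 liver left out. Adding 1 or 0.1 to FPKM shrinks the log2 fold changes of genes this low, so few can pass 1 there. Against all controls on log2(FPKM + 1), Gata3, Hoxa2, Irx1, Irx3 and Msx1 had limma adjusted p = 0.0137 to 0.0492. Their log2 fold changes there were 0.16 to 0.67. On log2(FPKM + 0.1), Hoxa2 and Msx1 did not pass (limma adjusted p = 0.0534 and 0.0570). Between the controls the count went from 0 to 1 with DESeq2 and with no filter, and ranged from 0 to 1 with 1 liver left out. With library size alone, the median over all genes tested was 0.17 on the log2 scale. The log2 fold change of Lhx6 reversed to -0.21 with voom, and with 1 liver left out it ranged from -0.58 to 0.42. The causes were not tested.

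The deviations of same-numbered livers from different groups correlated above 0.1 in 3 of 9 pairs (-0.125 to 0.216). Livers of different groups with different numbers were not compared, so pairing by replicate number was not settled. With the replicate block, 2 genes were called against all controls (0 higher) and 3 against MCS, while 10.7% and 4.21% of all genes were called higher and lower against all controls. KO 4 was the only liver with its replicate number, so the block took it up and it added nothing to the KO effect. The block therefore also left out KO 4, and against all controls it called the same genes, Pax9 and Pitx3, as the fit without KO 4.

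Of the 36 genes, 21 had fewer than 100 counts over 10 livers, and 6 would have missed the floor of 10 counts on the controls alone and 11 on the KO livers alone.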
